A study of Mus musculus with 8 samples.

Results

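Of the genes measured in sorted mouse distal convoluted tubules, 57 belonged to the amino acid transporter families Slc1a, Slc3a, Slc6a, Slc7a, Slc36a, Slc38a and Slc43a. They were chosen by gene symbol from the array annotation, among 18782 genes with a probe set (a group of array probes read as 1 value) that names exactly 1 gene. Where a gene had several such probe sets, the brightest over the 8 arrays was used. The members were then divided by how their level varied over the arrays. Of the 57, 7 followed 2 markers of the proximal tubule, 15 were steady and 34 were dim and did not follow. The remaining 1 met none of these descriptions (beside 1.29% of all genes).

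The distal convoluted tubule (DCT) is the nephron segment that reabsorbs sodium chloride through the cotransporter encoded by Slc12a3. The arrays were made from male C57/Bl6 mice of 8 weeks, 4 samples from TBC1D4-deficient and 4 from TBC1D4 wild-type animals. Mice of both groups also carried the PV-EGFPwt/tg transgene, in which the parvalbumin promoter drives EGFP, and glowing tubule fragments were picked by COPAS, a flow sorter for large particles. Whether samples came from separate animals or from pools was not stated, so a p-value here reflects only how far these samples spread, which may be technical. TBC1D4 is a Rab GTPase-activating protein of insulin-regulated vesicle traffic, and the comparison asks what changes in the DCT when it is missing.

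Amino acids filtered by the glomerulus are taken back almost wholly in the proximal tubule. Carriers of the Slc1, Slc6 and Slc7 families bring them in across the apical membrane, and exchangers made of a heavy chain of the Slc3 family and a light chain of the Slc7 family release them to the blood side. Other members serve the cell itself, by feeding protein synthesis, taking up creatine, or moving amino acids out of the lysosome, where SLC38A9 and SLC36A1 are known to inform the mTORC1 kinase about supply. Several Slc6a and Slc1a genes are best known as neurotransmitter carriers of the nervous system.

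Median intensities were alike, 8.41 to 9.03 per array. Tbc1d4 read 4.64 to 6.59 in the deficient arrays and 95.6 to 122.8 in the wild-type arrays on the intensity scale, a 19.3-fold difference (limma adjusted p = 6.35e-08). The deficient arrays lay under the array medians, so the size of that fold may be understated, and each array matched its label. The marker of the sorted segment, Slc12a3, stayed within 11.45 to 11.56 on the log2 scale. All 8 listed DCT markers were steady by the rule given below, as were 93.6% of all genes bright enough for that class. Proximal tubule markers varied most: their list mean (18 of 19 measured) ran from -1.06 to 0.28 around its centre in the deficient arrays and from -0.59 to 0.77 in the wild-type arrays. In a sorted bulk sample, fewer cells of a type and less RNA per cell cannot be told apart.

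The proximal tubule score of an array was the mean log2 intensity of Lrp2 (megalin, an endocytic receptor) and Slc34a1 (a sodium phosphate cotransporter). In TBC1D4-deficient replicates 1 to 4 it was 7.38, 8.69, 8.44 and 8.40. The wild-type arrays, in the same order, had scores of 7.95, 8.13, 9.04 and 9.01. The lowest score thus belonged to a deficient array and the 2 highest to wild-type arrays, while the groups overlapped. Lrp2 and Slc34a1 correlated with each other at r = 0.97 over the 8 arrays. A gene was said to follow the score when its Pearson r with it was at least 0.7 and its slope at least 0.2, where a slope of 1 means that the gene changed by as many log2 units as the markers. A gene was called steady when its mean was at least 5 on the log2 scale (an intensity of 32), its SD over the arrays under 0.25 and its slope smaller than 0.2 in size. It was called dim when its mean was under 5 and it did not follow the score, so a follower can also lie under 5. These classes were made from the values themselves, so r and slope are descriptions over 8 arrays and carry no p-value.

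By this rule 7 of 57 transporters (12.3%) followed the score, beside 2.75% of all 18782 genes. Among the proximal tubule markers not used in the score, 15 of 16 followed it, and the 16 had slopes of 0.83 to 1.59. The transporters that followed were, from the steepest, Slc6a13, Slc7a13, Slc6a18, Slc1a1, Slc7a9, Slc6a19 and Slc38a1. Apart from Slc38a1, all are known from the proximal tubule.

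**Figure D1:**
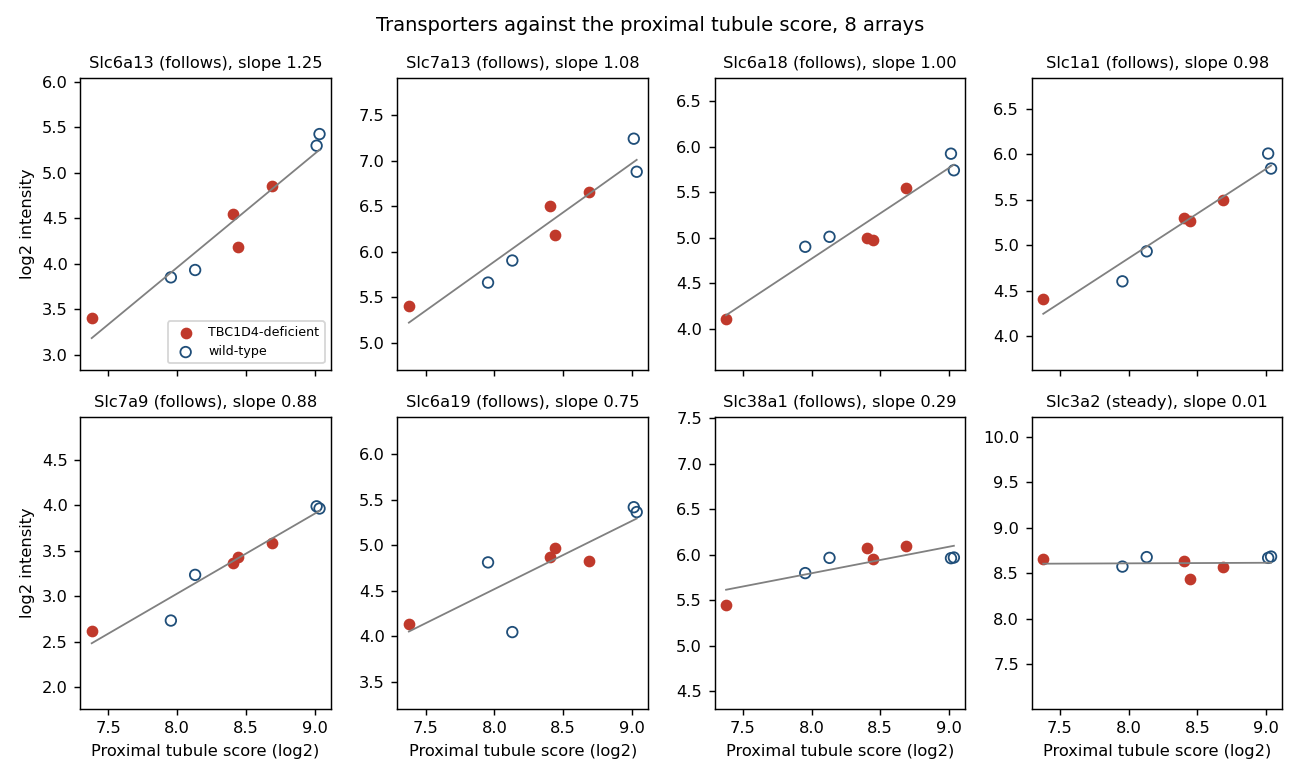
Each panel plots the log2 intensity of a transporter (vertical axis, the same span of log2 units in each panel) against the proximal tubule score (horizontal axis, log2) for 8 arrays, with filled points for TBC1D4-deficient and open points for wild-type, and the least-squares line. Slc6a13 is the steepest at 1.25, Slc38a1 the shallowest follower at 0.29, and Slc3a2 lies flat at 0.01.

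RefSeq promoters (250 bases before to 50 after a start, GRCm38.p6) were in the table used for 4 of these genes. They are shown because the genes were chosen for following the same score. They were searched for an HNF1-like motif, the arms GTTAAT and ATTAAC with 1 base between them, allowing 2 mismatches. HNF1 factors are transcription factors of kidney tubule cells, and the motif reads the same on both strands. Capitals mark the match, each sequence runs 5′ to 3′, and Slc3a2, a steady gene, is shown for comparison. The windows are chr6:121300490-121300789 (plus strand, 1 of 3 starts) for Slc6a13, chr7:35448842-35449141 (plus strand, 1 of 2 starts) for Slc7a9, chr13:73692587-73692886 (minus strand) for Slc6a19, chr19:28834885-28835184 (plus strand) for Slc1a1 and chr19:8713848-8714147 (minus strand) for Slc3a2.
Slc6a13: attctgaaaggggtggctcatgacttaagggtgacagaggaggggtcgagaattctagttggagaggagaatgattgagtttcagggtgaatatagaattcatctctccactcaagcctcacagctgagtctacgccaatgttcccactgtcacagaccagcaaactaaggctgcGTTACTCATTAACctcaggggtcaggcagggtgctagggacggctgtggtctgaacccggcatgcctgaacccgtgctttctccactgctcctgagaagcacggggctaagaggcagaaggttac
Slc7a9: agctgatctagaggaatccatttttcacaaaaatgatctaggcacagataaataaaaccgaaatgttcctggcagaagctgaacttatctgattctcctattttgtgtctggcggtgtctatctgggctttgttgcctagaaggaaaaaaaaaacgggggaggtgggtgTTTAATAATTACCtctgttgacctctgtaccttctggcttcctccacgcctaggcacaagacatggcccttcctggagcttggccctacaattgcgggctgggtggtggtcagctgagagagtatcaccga
Slc6a19: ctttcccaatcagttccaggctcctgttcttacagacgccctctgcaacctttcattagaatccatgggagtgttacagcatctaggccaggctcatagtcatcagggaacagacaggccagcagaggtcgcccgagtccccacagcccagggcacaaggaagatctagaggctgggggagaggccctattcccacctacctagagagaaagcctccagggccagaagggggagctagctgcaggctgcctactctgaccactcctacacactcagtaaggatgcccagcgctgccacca
Slc1a1: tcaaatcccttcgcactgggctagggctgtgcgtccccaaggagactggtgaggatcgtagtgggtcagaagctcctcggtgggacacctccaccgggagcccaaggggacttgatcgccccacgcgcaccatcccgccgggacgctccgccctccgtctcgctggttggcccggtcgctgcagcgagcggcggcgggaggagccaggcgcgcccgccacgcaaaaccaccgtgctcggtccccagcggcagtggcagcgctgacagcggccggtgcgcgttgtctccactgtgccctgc
Slc3a2: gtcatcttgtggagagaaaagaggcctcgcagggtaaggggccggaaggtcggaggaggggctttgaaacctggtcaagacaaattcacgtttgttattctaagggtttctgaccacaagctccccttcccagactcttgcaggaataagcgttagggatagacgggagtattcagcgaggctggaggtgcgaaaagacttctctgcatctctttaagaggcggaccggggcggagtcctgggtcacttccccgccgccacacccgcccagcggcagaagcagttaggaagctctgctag

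The match began at position -75 from the start in Slc6a13 and at -81 in Slc7a9 (the window of its other start overlaps this one and holds the same match), and the windows of Slc6a19 and Slc1a1 held none. A match was found in 1.36% of all 32851 promoters, in 2 of 4 following members, 0 of 12 steady members and 2 of 24 dim members in the table. Counted by gene, with a match at any start, 1.37% of 14724 genes measured held it. Of 411 genes that followed the score 6.57% did, beside 0.981% of 5301 steady genes. These followers and steady genes also differed in base composition, with a median GC content of 56.7% against 61.8% and a median of 10 CpG against 22. The part of base composition in the motif shares was not tested. Among the members, the promoter of Slc1a1 held 32 CpG and that of Slc6a19 held 4, beside a median of 17 among the 12 steady members. A match of letters is not a binding site.

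Among sodium- and chloride-coupled carriers, Slc6a13 (GAT2), a carrier of GABA and taurine, varied most. Its log2 intensity was 3.40, 4.85, 4.19 and 4.54 in TBC1D4-deficient replicates 1 to 4 and 3.85, 3.93, 5.42 and 5.30 in wild-type replicates 1 to 4, a 4.06-fold range. The order was nearly that of the markers (r = 0.97, Spearman rho = 0.98), and its slope of 1.25 was the steepest of the members. Slc6a18, a carrier of glycine and other neutral amino acids of the apical membrane, read 4.10, 5.54, 4.98 and 5.00 in the deficient arrays and 4.90, 5.01, 5.74 and 5.92 in the wild-type arrays. It followed with a slope of 0.997 (r = 0.96, rho = 0.88), and deficient replicate 1 stood below all others.

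Slc6a19 (B0AT1), the main apical carrier of neutral amino acids, whose loss causes Hartnup disorder, lies next to Slc6a18 on chromosome 13. It read 4.13, 4.82, 4.97 and 4.87 in the deficient arrays and 4.81, 4.05, 5.37 and 5.42 in the wild-type arrays. Its link to the score was looser than that of its neighbour (slope 0.75, r = 0.84, rho = 0.83), with a residual SD of 0.30 on the log2 scale against 0.16. Wild-type replicate 2 gave the lowest value of Slc6a19 though not of the score. Both genes pair with collectrin (Cltrn) in the proximal tubule, and Cltrn itself followed with a slope of 0.39 (r = 0.82).

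Of the light chains, Slc7a9 forms the apical exchanger of cystine and cationic amino acids that is faulty in cystinuria. Its values were 2.61, 3.58, 3.43 and 3.36 in the deficient arrays and 2.73, 3.23, 3.96 and 3.99 in the wild-type arrays, low enough that a fold change may be understated. It still kept close to the markers (slope 0.88, r = 0.97, rho = 0.98). Slc7a13, a carrier of cystine and acidic amino acids of the straight proximal tubule, read 5.40, 6.66, 6.18 and 6.50 and then 5.66, 5.90, 6.88 and 7.24 in the same order (slope 1.08, r = 0.96, rho = 0.95). Deficient replicate 1 was lowest for both light chains, and wild-type replicates 3 and 4 were highest. Their heavy chain partner Slc3a1 was read only on probe sets shared with another gene, and is not analysed here.

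Slc1a1 (EAAC1), the apical carrier of glutamate and aspartate, had the highest Pearson r with the score among the 57 members. It stood at 4.41, 5.49, 5.26 and 5.30 in the deficient arrays and at 4.60, 4.93, 5.84 and 6.01 in the wild-type arrays (slope 0.98, r = 0.98, rho = 0.95). Its other probe set gave a slope of 0.93. Slc38a1 (SNAT1), a sodium-coupled glutamine carrier found in many cell types, was the weakest follower. Its 4 deficient arrays read 5.45, 6.09, 5.96 and 6.08, and the wild-type arrays 5.80, 5.97, 5.97 and 5.96, so that only deficient replicate 1 and wild-type replicate 1 stood low. Without deficient replicate 1 its slope was 0.10 and its r 0.44, and it no longer met the rule.

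Of the other 6 followers, 5 also met the limit on r without the extreme arrays. With the 2 arrays farthest from the median score left out (deficient replicate 1 and wild-type replicate 3), r was 0.96 to 0.99 for Slc6a13, Slc7a13, Slc1a1 and Slc7a9, 0.91 for Slc6a18 and 0.696 for Slc6a19, which then fell just under the limit of 0.7. With each gene and the score centred on the genotype means, all 7 still met the rule, with slopes of 0.31 to 1.25. The 15 pairs among these 6 genes correlated at r = 0.75 to 0.99 (median 0.93). Each of the 6 was chosen for its r with the same score, so high values here were largely fixed by that choice. Sets of the arrays by the opening number of their description (5 to 8 and 9 to 12, of unstated meaning) hold 4 arrays each, too few for a correlation. The mean of 4 markers of the convoluted proximal tubule correlated with Slc1a1 at r = 0.98 and with Slc6a13 at r = 0.96. These markers include Slc34a1, which is part of the score, so both values were also largely fixed by the choice of followers. The mean of 4 markers of the straight part, 3 of them dim, correlated with Slc1a1 and Slc6a13 at r = 0.95 and 0.98. Of these markers only Fut9 followed the score (slope 1.11, r = 0.97). The 3 dim ones had slopes of 0.27, 0.21 and -0.05 (r = 0.62, 0.49 and -0.29), so this mean mostly reflects Fut9.

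**Figure D2:**
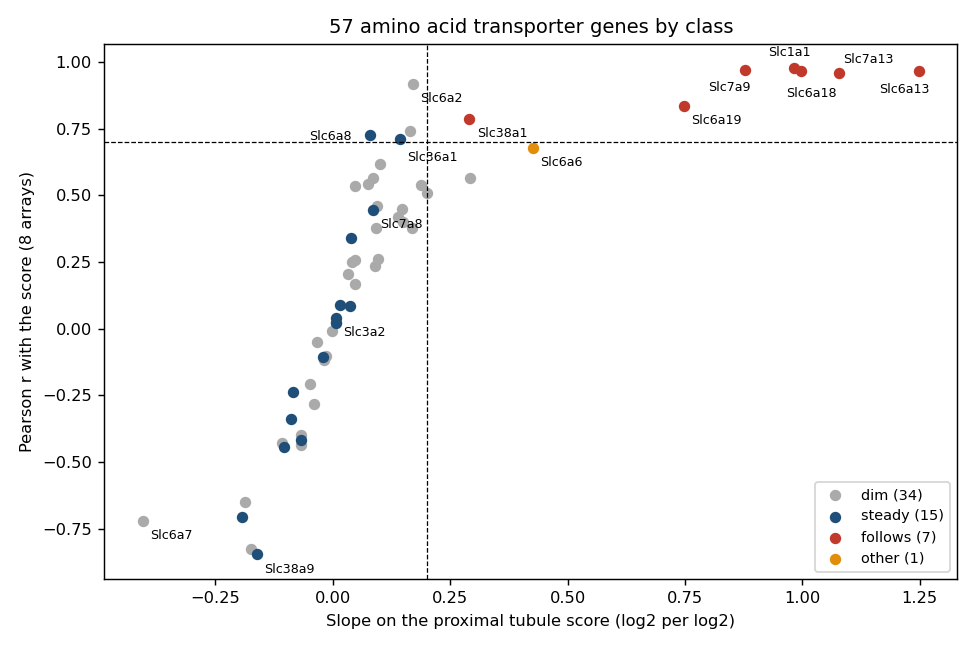
Each of the 57 transporters is placed by its slope on the proximal tubule score (horizontal axis, log2 per log2) and its Pearson r with the score over 8 arrays (vertical axis), coloured by class, with dashed lines at the thresholds of 0.2 and 0.7. The other 6 followers stand apart at slopes of 0.75 to 1.25, while Slc38a1 at 0.29 lies near the threshold.

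Just inside the thresholds lay Slc38a1 (r = 0.79, slope 0.29). Just outside lay Slc6a6 (r = 0.68, slope 0.43), Slc6a2, the noradrenaline carrier (r = 0.92, slope 0.17), and Slc7a12 (r = 0.74, slope 0.16); the last 2 were dim, at means of 2.92 and 1.36. Among steady members, Slc36a4 lay just inside the slope limit at -0.19 and Slc6a9 just inside the SD limit at 0.24. Slc7a1 lay just above the level minimum at a mean of 5.00, and Slc38a6 just under it at 4.63.

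Steady transporters numbered 15, or 26.3% of the members, beside 34.3% of all genes. Among genes bright enough to be called so, 93.6% were steady, so steadiness is the common state in these arrays. Of 6 listed markers of the thick ascending limb, at means of 4.62 to 11.12, 4 were steady too. Of the rest, 1 followed the score and 1 met neither rule. A steady level therefore does not place a transporter in the DCT rather than in another segment. A clear case of a steady member was Slc3a2, the heavy chain of the basolateral exchangers. Its log2 intensity was 8.66, 8.57, 8.43 and 8.63 in the deficient arrays and 8.57, 8.68, 8.68 and 8.67 in the wild-type arrays, a range of 1.19-fold over arrays whose score ran from 7.38 to 9.04. Its slope was 0.01.

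The light chains Slc7a8, Slc7a6 and Slc7a5, which join Slc3a2, were steady with it. Slc7a8 (LAT2), a neutral amino acid exchanger known from the basolateral membrane of the proximal tubule, read 7.93, 7.94, 7.74 and 7.84 in the deficient arrays and 7.86, 7.90, 8.08 and 8.03 in the wild-type arrays. Its slope was 0.09. Slc7a6 and Slc7a5 (LAT1), an exchanger of large neutral amino acids, had slopes of -0.02 and -0.09. Slc7a1, the cationic amino acid carrier that works without a heavy chain, was steady at a slope of -0.10.

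Several other carriers of the plasma membrane were in the steady class. Slc1a5 (ASCT2), a glutamine exchanger, read 8.01, 7.97, 8.17 and 8.07 in the deficient arrays and 8.03, 8.00, 7.93 and 7.87 in the wild-type arrays. Slc43a2 (LAT4), a carrier of branched-chain amino acids, ranged over 1.17-fold and Slc6a8, the creatine carrier, over 1.12-fold, the smallest range of the steady members. Slc6a8 read 8.12, 8.28, 8.19 and 8.14 and then 8.16, 8.11, 8.20 and 8.26, and although its r with the score was 0.73 its slope was only 0.08. Slc38a2 (SNAT2), a glutamine carrier known to be induced by amino acid shortage, varied more, with 8.77, 8.45, 8.86 and 8.71 in the deficient and 8.97, 8.60, 8.50 and 8.97 in the wild-type arrays. Those differences did not track the markers (slope -0.08, r = -0.24). Slc6a9, a glycine carrier, had the widest range of the class, 1.73-fold, with wild-type replicate 4 highest at 6.10 and wild-type replicate 3 lowest at 5.30.

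Lysosomal and proton-coupled members, together with Slc38a10, formed the rest of the steady class. Slc38a9, the lysosomal arginine sensor, read 6.40, 6.16, 6.30 and 6.24 in the deficient and 6.36, 6.34, 6.08 and 6.25 in the wild-type arrays. It was lower where the markers were higher (slope -0.16, r = -0.85, rho = -0.88), though a dimmer probe set gave a slope of 0.02. Slc36a4 leaned the same way (slope -0.19, r = -0.70), and Slc36a1 (PAT1), which exports small amino acids from lysosomes, the other way (slope 0.14, r = 0.71). Slc38a7, a lysosomal glutamine carrier, and Slc38a10 had slopes of 0.01 and 0.02.

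**Figure D3:**
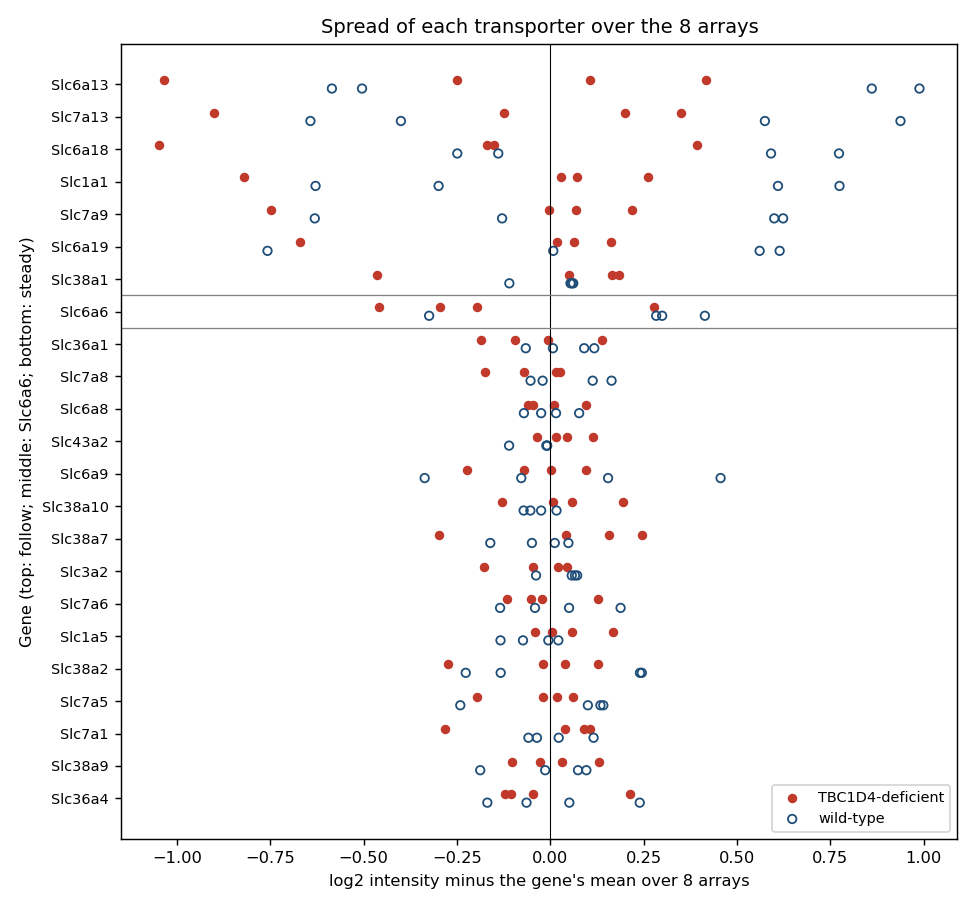
Each row shows the 8 log2 intensities of a transporter minus their mean (horizontal axis), with filled points for TBC1D4-deficient and open points for wild-type arrays. Rows run from the followers at the top, through Slc6a6, to the steady genes, whose values lie within 0.5 log2 units of the mean.

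Slc6a6, the taurine carrier, met neither rule. Its values were 4.74, 5.48, 5.01 and 4.91 in the deficient arrays and 5.50, 4.88, 5.62 and 5.49 in the wild-type arrays, in 2 groups that genotype does not give. The sample descriptions carry identifiers in 2 separate ranges, whose meaning the labels leave unstated. The arrays of the higher range (deficient replicate 2 and wild-type replicates 1, 3 and 4) were at 5.52 ± 0.06 (SD, n = 4) and those of the lower range at 4.88 ± 0.11 (SD, n = 4), and the split was noticed after the values were seen. Over all 18782 genes, 2.86% did not overlap between these ranges, and 1 of 57 members did not, but only 18 genes (0.0958%) were also apart by 0.5 or more on the log2 scale. Intercalated cell markers had list means of 0.41, 0.38 and 0.49 in 3 of the high arrays and -0.14 in the other, against -0.32 to -0.24 in the low arrays; their part in the result was not tested.

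Dim members numbered 34 of 57, beside 61.7% of all genes. The followers Slc6a13, Slc6a19 and Slc7a9 also had means under 5 (4.44, 4.80 and 3.36) but are not counted as dim. Of the dim members, 28 had a mean under the median of all probe sets (3.15 on the log2 scale), and the table gives no detection call, so these levels cannot be told from background. By family, 12 of 18 Slc6a, 7 of 13 Slc7a, 6 of 11 Slc38a and 5 of 7 Slc1a members were dim. Slc6a12, the betaine carrier next to Slc6a13 on chromosome 6, was among them, so these neighbours differed in class. Slc38a1 and its neighbour Slc38a2 on chromosome 15 also fell into different classes.

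Between genotypes, none of the 57 transporters passed the threshold of 0.05 (limma, Benjamini-Hochberg over 23039 probe sets; smallest adjusted p = 0.9999), beside 0.00434% of all probe sets, which was Tbc1d4 alone. An unadjusted p below 0.05 was found for 1 member, beside 2.9% of all probe sets and 2.99% of the 18782 genes. The TBC1D4-deficient mean was below the wild-type mean in 38 members and above it in 19, with a median log2 difference of -0.05, and 50.9% of all probe sets were below. The 95% interval lay inside 1.5-fold for 48 of 57 members, beside 97.4% of all probe sets. The groups did not overlap in 1 member (beside 1.85%), the dim Slc7a2, at 1.73 ± 0.05 in deficient and 1.80 ± 0.02 in wild-type arrays (SD, n = 4 each), named after its values were seen.

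Most followers had wide intervals, and only that of Slc38a1 lay inside 1.5-fold. All 7 had lower means in the deficient group, with a median difference of -0.23 on the log2 scale, as did 92.1% of all 516 genes that followed the score. Slc6a18 averaged 4.91 ± 0.60 in deficient and 5.39 ± 0.51 in wild-type arrays (SD, n = 4 each). Its log2 difference was -0.49, with a 95% interval of -1.17 to 0.19 (limma adjusted p = 0.9999). Slc6a13 differed by -0.38 (-1.29 to 0.53), Slc1a1 by -0.23 (-0.95 to 0.50) and Slc7a13 by -0.24 (-1.05 to 0.58). For Slc7a9, Slc6a19 and Slc38a1 the differences were -0.23, -0.21 and -0.03.

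The list mean of the proximal tubule markers also differed between the groups, by -0.31. Because the followers were chosen for their slope on the score over these same arrays, that they differ in the same direction as the markers, and that a score covariate shrinks the difference, is largely fixed by the choice. Endothelial markers, at means of 3.05 to 5.27, differed too: 9 of 9 were lower in the deficient group, beside 9459 of 18782 genes. Of them 3 of 9 followed the score (beside 2.75% of all genes). By genotype 0 passed (limma), and 6 had an unadjusted p below 0.05 (beside 2.99%). Their list mean ran from -0.46 to 0.02 in deficient and from -0.01 to 0.26 in wild-type arrays. Collecting duct principal markers were lower in 6 of 6. Intercalated, thick ascending limb, and fibroblast and smooth muscle markers were lower in 5 of 6 each. Of DCT, podocyte and leukocyte markers, 2 of 8, 2 of 4 and 2 of 6 were lower. The part of these markers in the result was not tested. With the score as a covariate the median difference of the followers was 0.04, with Slc1a1 at 0.08 (-0.13 to 0.28), Slc6a13 at -0.00062 (-0.29 to 0.29) and Slc6a18 at -0.20 (-0.41 to 0.0017; limma adjusted p = 0.9999). Without deficient replicate 1 the median was -0.02, and without wild-type replicates 3 or 4 it was -0.07 and -0.04. It was -0.48 without wild-type replicate 1, -0.41 without wild-type replicate 2 and -0.35 without deficient replicate 2. Within the arrays numbered 5 to 8 it was -0.10 and within those numbered 9 to 12 it was -0.42, and with the identifier range as a block it was 0.03. All followers had higher means in the higher identifier range, by 0.09 (Slc38a1) to 0.84 (Slc6a13) on the log2 scale. That split was noticed after values were seen, so the 0.03 is not an independent check.

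All 15 steady members, chosen for a small spread, lay inside 1.5-fold, 9 below 0 (beside 42.8% of all steady genes) and 6 above, with a median log2 difference of -0.03. The largest in size was that of Slc7a8, at 7.87 ± 0.09 in deficient and 7.97 ± 0.10 in wild-type arrays (SD, n = 4 each; difference -0.10, 95% interval -0.27 to 0.06). Its heavy chain Slc3a2 differed by -0.08 (-0.23 to 0.07), and the light chains Slc7a5 and Slc7a6 by -0.07 and -0.03. Slc7a5 stood at -0.23 within arrays 5 to 8 and at 0.09 within arrays 9 to 12, so its direction turned. Slc1a5 stood at 0.10 (-0.05 to 0.24) and Slc43a2 at 0.07 (-0.06 to 0.20). Slc6a8 differed by 0.0012 (-0.14 to 0.14) and Slc38a9 by 0.02 (-0.16 to 0.19). Slc38a2 stood at 0.23 within arrays 5 to 8 and at -0.36 within arrays 9 to 12, for a pooled -0.06 (-0.35 to 0.22). In all, 10 of the 15 steady members had opposite signs in these sets of arrays, as did 15 of 34 dim members and 2 of 7 followers. The share over all genes was not counted. With 4 arrays in each set and differences near 0, the count cannot be read as a trait of the steady members.

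**Figure D4:**
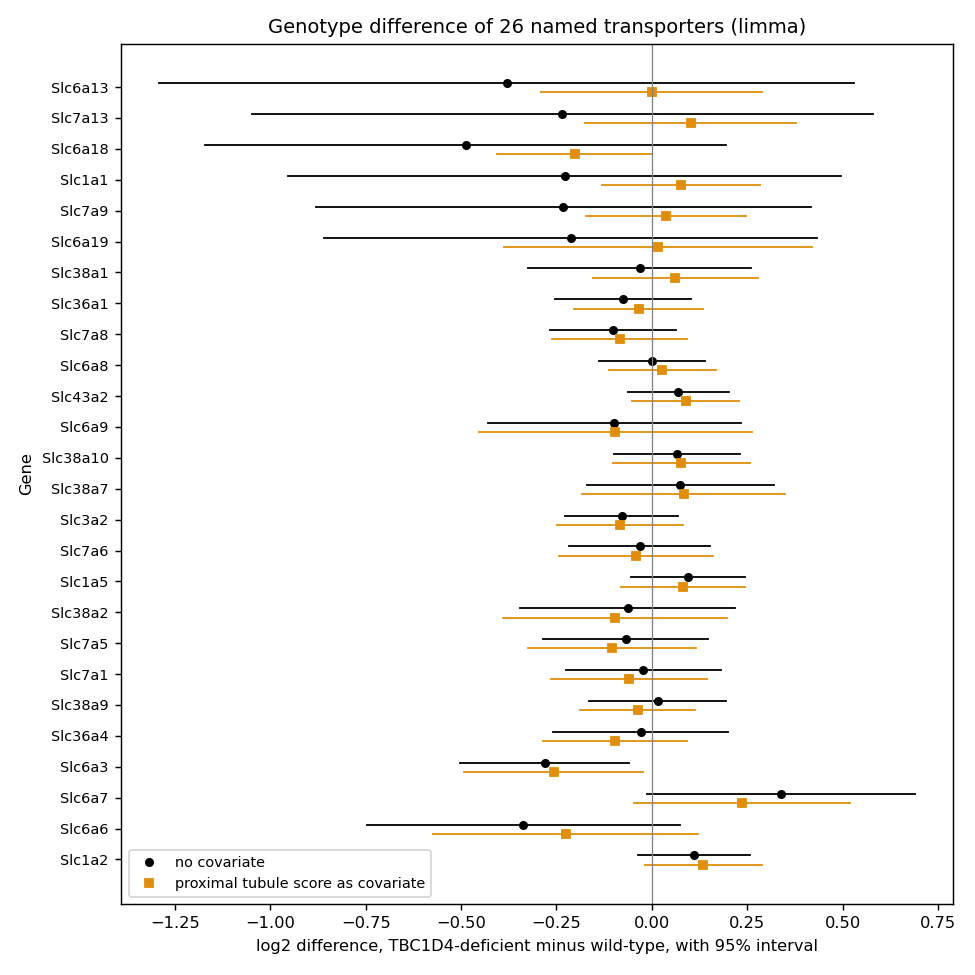
Points give the log2 difference, TBC1D4-deficient minus wild-type, of 26 transporters with its 95% interval from limma (horizontal axis), in black without a covariate and in orange with the proximal tubule score as covariate. The intervals of most followers, at the top, are wider without the covariate than with it and the steady genes lie near 0, which the class rules on slope and spread largely fix.

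The smallest unadjusted p of the members belonged to Slc6a3, the dopamine carrier, at 2.22 ± 0.19 in deficient and 2.51 ± 0.11 in wild-type arrays (SD, n = 4 each; log2 difference -0.28, 95% interval -0.50 to -0.06; limma adjusted p = 0.9999). At that level it cannot be told from background. Slc6a7, a proline carrier, differed by 0.34 (-0.01 to 0.69) and Slc1a2 by 0.11 (-0.04 to 0.26), both dim. Without deficient replicate 1 the value of Slc6a7 was 0.22. Arrays 5 to 8 alone gave 0.20 for it, and arrays 9 to 12 gave 0.48. Without wild-type replicate 1 that of Slc1a2 was 0.07. Slc6a6 differed by -0.34 (-0.75 to 0.07), and by -0.02 (-0.22 to 0.17) with the identifier range as a block. Of the 4 arrays of the lower range, 3 were TBC1D4-deficient. Because the split was noticed after the values of Slc6a6 were seen, this smaller difference was largely fixed by the choice of block.

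A list of amino acid transport genes that the symbol pattern does not match was placed by the same rules. It includes Slc6a20a and Slc6a20b, which belong to the Slc6 family but whose symbols end in a letter. Of 25 listed, 21 were measured. Among them 4 followed the score (beside 2.75% of all genes) and 7 were steady (beside 34.3%). By genotype 0 passed (limma). An unadjusted p below 0.05 was found for 1, Slc15a1, named after its value was seen (beside 2.99% of all genes). Slc6a20b, a carrier of proline and other imino acids, followed the markers most closely of all transporters described here (slope 1.13, r = 0.995), with 4.81, 6.18, 5.97 and 5.97 in deficient and 5.50, 5.71, 6.77 and 6.69 in wild-type arrays. The others were Cltrn, Slc25a15, a mitochondrial ornithine carrier (slope 0.27), and Slc18a1, a vesicular monoamine carrier on the list (slope 0.94). Steady genes included Slc16a10, a carrier of aromatic amino acids (slope -0.03), and Ctns, the lysosomal cystine carrier (slope -0.09).

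Genes of amino acid sensing and targets of ATF4, the transcription factor of the amino acid response, were placed by the same rules. Of 32 listed, 29 were measured. Steady genes numbered 17 (58.6% of the 29, dim genes included), beside 34.3% of all genes. The 93.6% of bright genes that were steady leaves dim genes out, so 58.6% cannot be set against it. A further 10 were dim and 1, Shmt2, followed the score (slope 0.42), beside 2.75% of all genes. By genotype 16 lay above 0 and 13 below, and all 29 intervals lay inside 1.5-fold, beside 97.4% of all probe sets. Of the 29, 0 passed (limma). An unadjusted p below 0.05 was found for 2, Mthfd2 and Psph, beside 2.99% of all genes. Mthfd2, Psph and Shmt2 were named after their values were seen. The median log2 difference was 0.01, beside -0.00074 over all genes.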

How the data were processed

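Labelled cDNA from 100 ng of RNA was read on 8 arrays of 1 colour with a biotin label, per the labels' protocols. The authors deposited probe set intensity values on a linear scale for 28371 probe sets. Affymetrix Power Tools is named in the submitters' processing notes; version, summarisation, normalization and genome build: not given in the sources used here. A normalization that equalises arrays can remove a shift common to most genes.

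Here log2 was taken with no pseudocount or filter. The 2-sided genotype test was limma 3.58.1 (R 4.3.3; a linear model with empirical Bayes variances and genotype as its only term), run on 23039 probe sets with at least 1 symbol, Benjamini-Hochberg adjusted, threshold 0.05; intervals are 95% intervals. Of the probe sets, 21158 had 1 symbol, 1881 several and 5332 none; 6 naming a family gene beside another gene were not used, which leaves out 3 genes. All 57 members matched RefSeq gene identifiers (GRCm38.p6), with 0 symbols changed, and 4 had more than 1 probe set. Precision is limited by having 4 arrays per group. The scripts were tested on simulated data.

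Members and lists were chosen with earlier results of these data known. Named are all followers and steady members, the 4 members with the smallest p by genotype, members near a threshold, and list genes that met a class rule; others are marked. Alternatives were other scalings, a pseudocount, a level filter, blocks, covariates, other class thresholds and scores, averaged probe sets, and leaving out each array.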

Additional observations from a re-analysis of the deposited data

Results flagged for a closer look

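In 5 of 52 groups of 4 arrays (26 transporters in 2 genotypes), a single array stood far from the others by Dixon's criterion, which chance meets in about 1 group in 20. Wild-type replicate 1 was low in 3 of them. It read 5.80 for Slc38a1 against 5.96 to 5.97 in the other wild-type arrays, 8.57 for Slc3a2 against 8.67 to 8.68, and 8.25 for Slc43a2, where the others read 8.35 to 8.36. In each case the other wild-type arrays lay close together. Slc7a1 was 4.72 in TBC1D4-deficient replicate 3 against 5.04 to 5.11, and Slc7a5 was 5.21 in wild-type replicate 4 against 5.56 to 5.60.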

How the results depend on the processing

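The count of transporters called by genotype was 0 in all 20 alternatives of the fit, and the count over all probe sets was 1 in each but the level filter, where 0 of 8446 probe sets passed (limma; 206 had an unadjusted p below 0.05) because Tbc1d4, at a mean of 4.61, was removed by it. With the replicate number as a block, 1 probe set and 0 transporters were called. The numbers were not taken as a pairing, since deviations of same-numbered arrays correlated at 0.40, -0.19, 0.04 and 0.01. Of 514 differences of the 26 named transporters under these alternatives, 467 kept the sign of the main value and 47 had the opposite sign, and none passed (lowest adjusted p = 0.997). The number of followers was 6 to 10 and of steady members 10 to 18. In these settings Slc6a13, Slc7a13, Slc6a18, Slc1a1, Slc7a9 and Slc6a19 were kept, though Slc6a19 fell to r = 0.696 when both arrays farthest from the median score were left out. Slc38a1 was lost at r of at least 0.8, at a slope of at least 0.3 and without TBC1D4-deficient replicate 1. Signal near background limits what can be said of the 34 dim members.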
